A study of Drosophila melanogaster with 2 samples.

Results

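The regions described here are the intervals that luna-GFP chromatin immunoprecipitation ranked high in replicate 1 but not in replicate 2. The candidate peaks of each replicate were ranked by the authors' signal value, and rank 1696 was taken as the cut, which is the number of peaks the authors passed for reproducibility. A replicate 1 interval inside that cut was selected when it overlapped, by 1 bp or more, none of the replicate 2 intervals inside the same cut. This held for 617 of the 1696 intervals, or 36.4%, and the other 1079 intervals are called shared. In replicate 2, with its list cut at the same rank, 617 intervals likewise lacked a partner in replicate 1, and these are used below as a second comparison. The material was whole embryos of Drosophila melanogaster of mixed sex, aged 0 to 24 h. They came from 1 line whose luna gene carries an intronic exon for enhanced GFP, and the endogenous gene therefore yields a fusion protein. Chromatin fragments of 200 to 800 bp were recovered through the GFP tag with an antibody, in 2 biological replicates of this single group. The embryos span all of embryogenesis and all tissues, so a region's signal is a sum over cell types and stages.

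The luna protein belongs to the Krüppel-like factor (KLF) family of zinc-finger regulators, which bind GC-rich and CACCC-type boxes in promoters and enhancers. In a ChIP-seq experiment a peak marks DNA that was recovered more often with the antibody than the background, through direct binding or through contact with other bound proteins. Strong peaks of many factors in fly embryos lie just upstream of the transcription start sites (TSSs) of housekeeping genes, where architectural proteins such as BEAF-32, CTCF and M1BP also bind. The irreproducible discovery rate (IDR), used by the authors, scores how well peak ranks repeat. The IDR list used here consists of the 1696 strongest candidates called from both replicates together. An overlap with it therefore does not by itself show a high rank in each replicate.

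The sequences at the summits of 8 of the selected regions are given as examples and are not representative of the set. They are the 8 strongest on X, 2L, 3L, 3R and 4 whose window of 50 bp on each side of the summit touched no annotated exon. Each is the plus strand of the RefSeq copy of Release 6, which has the dm6 coordinates, and capitals mark matches to the motifs tested further on. CG7694 is a gene whose intron is shared with fray, which encodes a Ste20-like kinase. Snoo is the fly homologue of the Sno corepressor, Ada2b is a subunit of the SAGA histone acetyltransferase, bol encodes an RNA-binding protein of the DAZ family and simj is a subunit of the NuRD remodelling complex. Syx4 encodes a syntaxin of the membrane fusion machinery, and Krn encodes a ligand of the EGF receptor.
CG7694 and fray intron, chr3R:18573894-18573994: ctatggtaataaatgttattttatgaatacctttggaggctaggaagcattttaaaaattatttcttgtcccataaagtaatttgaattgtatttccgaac
Snoo intron, chr2L:7925537-7925637: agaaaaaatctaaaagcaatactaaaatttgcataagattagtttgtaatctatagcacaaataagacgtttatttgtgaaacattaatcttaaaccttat
Ada2b intron, chr3R:8239800-8239900: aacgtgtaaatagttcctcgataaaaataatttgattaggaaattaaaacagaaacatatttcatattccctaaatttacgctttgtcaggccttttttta
bol intron, chr3L:9127410-9127510: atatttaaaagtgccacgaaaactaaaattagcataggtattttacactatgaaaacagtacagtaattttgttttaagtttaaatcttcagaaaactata
simj intron, chr3L:10665574-10665674: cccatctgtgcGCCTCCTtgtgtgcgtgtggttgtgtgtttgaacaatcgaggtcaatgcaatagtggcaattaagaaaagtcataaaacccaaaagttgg
Syx4 promoter, chrX:2743236-2743336: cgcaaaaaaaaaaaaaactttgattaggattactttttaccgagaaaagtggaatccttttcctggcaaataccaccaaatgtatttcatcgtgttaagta
Krn and Ndfip promoters, chr3L:17654327-17654427: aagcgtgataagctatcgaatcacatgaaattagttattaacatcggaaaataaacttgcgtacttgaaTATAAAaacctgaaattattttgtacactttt
CG8128 promoter, chrX:15697862-15697962: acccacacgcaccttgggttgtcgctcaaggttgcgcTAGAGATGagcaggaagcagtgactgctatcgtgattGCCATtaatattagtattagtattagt
The first 4 windows, all intronic, held no match to any of the motifs and were AT-rich, at 22.8% to 27.7% G and C. The Syx4 promoter window also held no match, at 31.7%. The Krn promoter window was at 27.7%, and the simj intron window at 44.6%. The window upstream of Krn and Ndfip, with its summit 97 bp from the TSS of each, held a TATA box match. In CG8128 the capitals mark an Ohler7 core on the minus strand and a Pho core, and in simj a CTCF core on the minus strand. No match to the KLF core was found in these windows. Among all selected regions 31.1% of summits were intronic. The median G and C content of all selected regions was 37.3%, and that of the intronic ones 35.8%, in windows of 100 bp on each side of the summit.

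The values that chose these regions are given here as a description. The selected intervals lay at ranks 179 to 1696 in replicate 1, with a median rank of 1245, whereas the shared intervals lay at ranks 1 to 1693 with a median of 577. Their signal values in replicate 1 were 21.9 to 60.5, with a median of 25.3, against a median of 36.3 for shared intervals and a highest value of 358. They were thus mostly found low inside the cut. Among the strongest 212 ranks 2 intervals were selected, or 0.943%, and among the weakest 212 ranks 158 were, or 74.5%.

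In replicate 2, 579 of the 617 overlapped some candidate of the full list of 30000. The best overlapping candidate lay at ranks 1708 to 28975, with a median of 3485, and its signal value was 7.86 to 27.0. For 283 regions, 45.9%, the replicate 2 rank was no deeper than 3392. For 230 regions it lay from there to rank 10000, for 66 it lay beyond rank 10000, and 38 regions, 6.16%, overlapped no replicate 2 candidate at all. The deep end of such a list also holds background, so an overlap with a candidate there does not by itself show a peak.

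**Figure D1:**
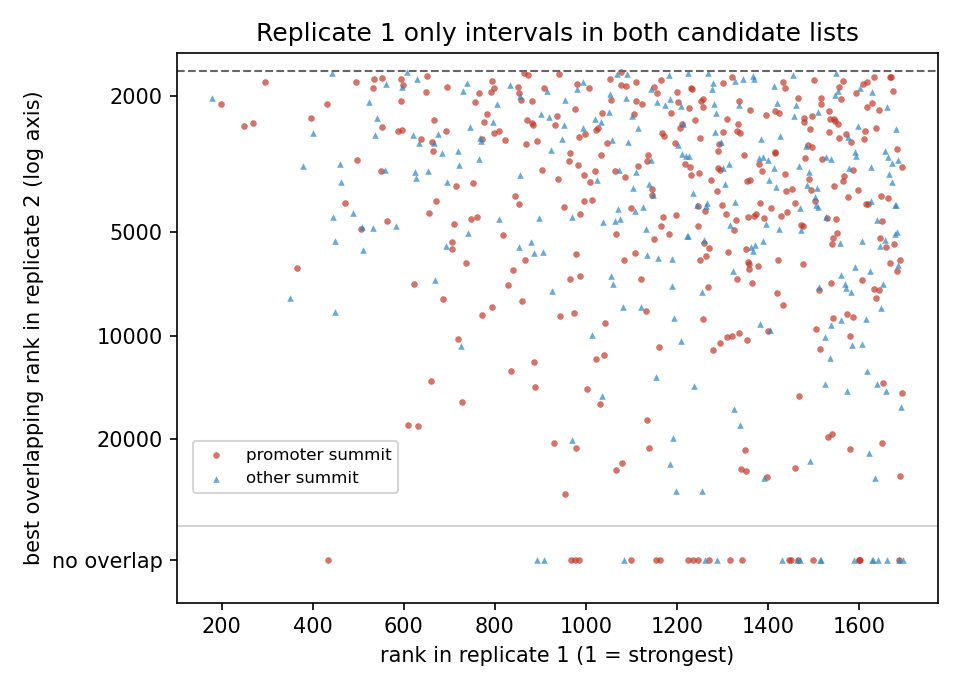
Rank of each of the 617 selected regions in replicate 1 (x axis, 1 is strongest) against the best rank of an overlapping replicate 2 candidate (y axis, log scale, strongest at the top). Circles are summits within 500 bp of a TSS, triangles are other summits, the dashed line is the cut at rank 1696, and the bottom row holds the 38 regions with no overlapping candidate. Most points lie in the right part of the plot and above rank 10000 of replicate 2.

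The regions at the edge of the cut show how narrow the step is. Among the last intervals inside it were those at the TSS of CG8441, with a signal value of 21.91, and at the TSS of CG3847 with 21.90. Just outside lay an intronic interval nearest to geko with 21.86, at the TSS of Sld5, a GINS replication subunit, with 21.85, and an intronic interval nearest to Xrp1, a bZIP factor of the stress response, with 21.84. On the replicate 2 side the cut stood at a signal value of 27.13. The selected regions that came closest to it were near CG14186 with 27.03, at the promoter of CG18766 with 27.02 and at the promoter of msi, the RNA-binding protein Musashi, with 27.02. At the other end Golgin245 had 28.8 in replicate 1 and 7.86 in replicate 2, the lowest replicate 2 value among these regions. Signal values carry no stated scale and were not compared in size between the lists.

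The authors' pooled list, made from both replicates together, contained an overlapping candidate for 615 of the 617 regions, at a median pooled rank of 1728. Of the selected regions 290, 47.0%, overlapped a peak that passed IDR, against 1070 of 1079 shared intervals, 99.2%. The IDR list consists of the strongest pooled candidates, so this overlap uses the same signal as the selection and was not tested. Promoter summits made up 57.9% of the regions with an IDR peak and 58.1% of those without.

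The strongest selected regions lay at genes of varied function. The interval in the intron of CG7694 and fray ranked 179 in replicate 1 with a signal value of 60.5, and 2028 in replicate 2 with 25.2. Its summit was 853 bp downstream of the TSS of CG7694. The interval at the promoter of Syx4 ranked 198 and 2117, with signal values of 59.0 and 24.8, and its summit lay 328 bp upstream of that TSS inside an intron of the much longer gene kirre, an immunoglobulin-family protein of myoblast fusion. Both were strong in replicate 1 and lay somewhat below the cut in replicate 2.

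Well-studied genes followed. Mer encodes Merlin, an upstream regulator of the Hippo pathway, and its interval at X 19693212 to 19693575 had a signal value of 53.2 in replicate 1 and 23.2 in replicate 2. Cds encodes CDP-diacylglycerol synthase and faces Uba2, a subunit of the SUMO-activating enzyme. The interval between them had a signal value of 51.2 in replicate 1 and 23.4 in replicate 2. ASPP, the fly homologue of the mammalian ASPP proteins, had 48.9 and 26.4, with the summit 154 bp upstream of its TSS. usp encodes Ultraspiracle, the partner of the ecdysone receptor, and had 44.3 in replicate 1 and 15.5 in replicate 2, where it ranked only 6339. For all 4 the summit lay within 200 bp of the TSS.

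PRAS40, an inhibitory partner of the Tor kinase complex, held an intronic interval with a signal value of 45.1 in replicate 1 and 14.2 in replicate 2, where it ranked 7744. The intronic interval in Spec2, whose nearest TSS is that of Dph4, had 40.5 and 13.7, at rank 8554 in replicate 2. The Snoo intron held a summit 34883 bp from the nearest TSS, that of Spn28Db, and the other 14 of the 15 strongest lay within 2429 bp of one. Pex13, a peroxisomal import factor, shares its promoter with fsd, and the interval between them had 42.5 in replicate 1 and 23.8 in replicate 2.

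CG8128 was the strongest of the 38 regions with no overlapping replicate 2 candidate. Its interval, at X 15697730 to 15698093, ranked 434 in replicate 1 with a signal value of 40.9, yet overlapped an IDR peak at pooled rank 1632. The next 7 ranked 893 to 1100 and overlapped no IDR peak. They included an interval in an intron of Amph, the membrane-curving protein amphiphysin, and an interval near CG33777. Another had its summit 213 bp upstream of the TSSs of both CG44245 and Gyg, the glycogen primer glycogenin. A further interval lay at the promoters of Mcm5, a subunit of the replicative helicase, and the arginine methyltransferase Art1. The others lay at the TSS of ocm, in an intron of the phosphatase gene Pp2C1 and at the promoter of Mnt, the repressor that pairs with Max. Of the 38 regions 21, 55.3% with a 95% Wilson interval of 39.7% to 69.9%, were promoter summits, a share inside the intervals of the regions that did have a replicate 2 candidate.

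The selected regions were less often at promoters than the shared ones. A promoter summit is one within 500 bp of an annotated TSS. This held for 358 of the 617 regions, 58.0% with a Wilson interval of 54.1% to 61.9%, against 743 of the 1079 shared intervals, 68.9% with an interval of 66.0% to 71.6%. The difference was -10.8 percentage points with a 95% interval of -15.6 to -6.06, an odds ratio of 0.625 with an interval of 0.509 to 0.768 (two-sided Fisher's exact test, p = 8.65e-06). The test compares regions within the replicate 1 list, and regions are not replicates of a condition, so its p-value describes these lists only. The selected regions also ranked lower in replicate 1, so the comparison was repeated over eighths of the replicate 1 rank. It gave a Mantel-Haenszel odds ratio of 0.682, still past the 0.05 threshold of that test. When the cut was placed at rank 848 the shares were 64.5% of selected and 69.7% of shared intervals, and the difference no longer passed (Fisher's exact test, p = 0.134).

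**Figure D2:**
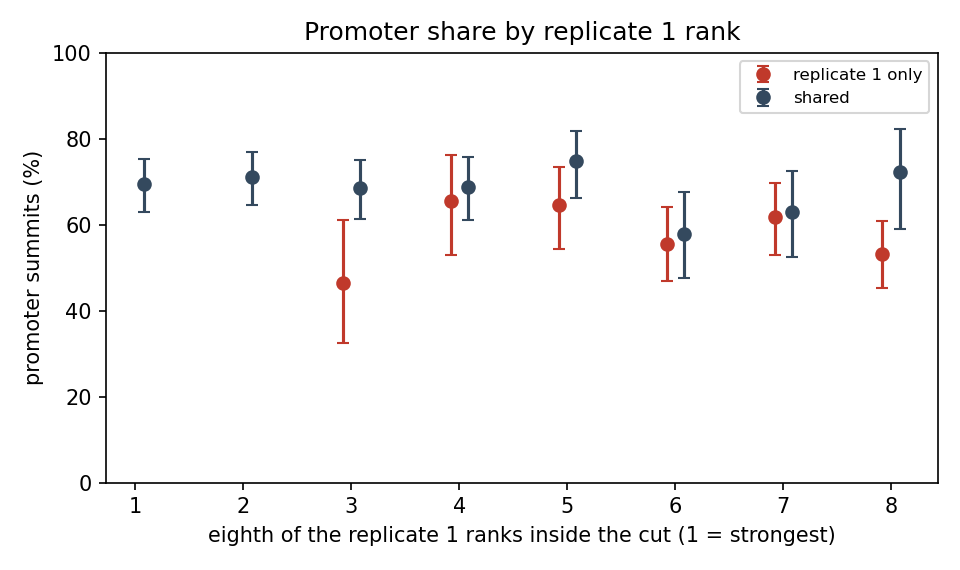
Percentage of summits within 500 bp of a TSS (y axis) by eighth of the replicate 1 rank (x axis, strongest ranks at the left), for selected regions and shared intervals, with 95% Wilson intervals. Selected regions are drawn only for eighths with 20 or more of them, since the 2 strongest eighths hold 2 and 8. The selected share was below the shared one in all 6 eighths drawn, and the intervals overlap in 5 of the 6.

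In the weakest eighth, ranks 1485 to 1696, 84 of 158 selected regions were promoter summits, 53.2%, against 39 of 54 shared intervals, 72.2%. In the third eighth, ranks 425 to 636, the shares were 46.5% of 43 selected regions and 68.6% of 169 shared intervals. They lay close together in the sixth eighth, at 55.6% of selected and 58.0% of shared intervals, and in the seventh, at 61.7% and 63.1% in the same order of sets. Depth in replicate 2 made little difference within the selected regions. Promoter summits were 58.7% of those with a replicate 2 rank to 3392, 57.0% of those to rank 10000 and 60.6% of those beyond, with intervals that all overlap.

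Introns held most of the selected regions outside promoters. Over all summits 192 selected regions, 31.1%, were intronic, against 233 shared intervals, 21.6%, and 51, 8.27%, were intergenic, against 75, 6.95%. Since a lower promoter share must raise the others, the classes were tested among the summits outside promoters, 259 selected and 336 shared. There, introns made up 74.1% of selected and 69.3% of shared summits, with an odds ratio of 1.27 and an interval of 0.882 to 1.82 (Fisher's exact test, adjusted p = 0.492). Intergenic summits were 19.7% and 22.3%, coding exons 7 and 5 summits, untranslated regions 6 and 14 summits, and exons of non-coding genes 3 and 9 summits, each with the selected set first. At an adjusted threshold of 0.05, 0 of the 6 classes passed, and 0 did at an unadjusted one. With the cut at rank 3392 coding exons passed, at 7.64% of 825 selected and 1.21% of 663 shared summits outside promoters (Fisher's exact test, adjusted p = 5.69e-09), and the intron share turned to lower in the selected set, at 62.9% against 70.0%. Of the intronic summits 147 of 192, 76.6%, lay in the first intron of a transcript, against 188 of 233 shared ones, 80.7%. The median distance of an intronic summit to the nearest TSS was 1942 bp in the selected and 1573 bp in the shared set.

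**Figure D3:**
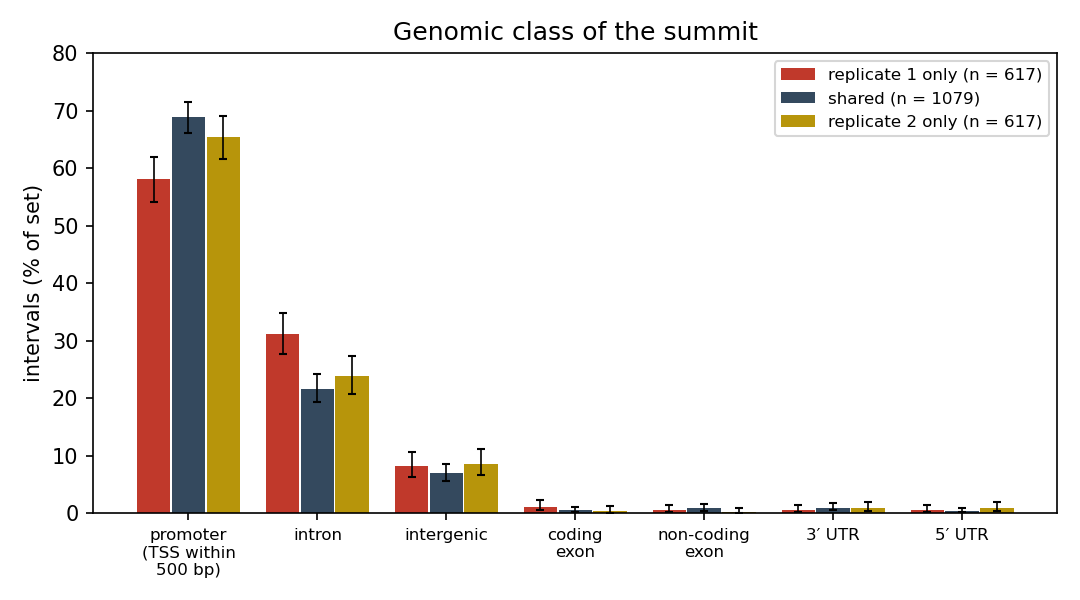
Percentage of each set's intervals (y axis) whose summit lies in each genomic class (x axis), for selected regions (replicate 1 only in the legend), shared intervals and intervals found in replicate 2 only, with 95% Wilson intervals. The selected regions have the lowest promoter bar, 58.0%, and the highest intron bar, 31.1%.

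At promoters most selected regions, like most shared ones, had their summit upstream of the TSS. Of the 345 selected regions within 500 bp of a protein-coding TSS 280, 81.2% with an interval of 76.7% to 84.9%, had their summit upstream, against 597 of 715 shared intervals, 83.5% with an interval of 80.6% to 86.0%. The difference was -2.34 points, with a 95% interval of -7.28 to 2.61 (two-sided Fisher's exact test, p = 0.342). With the cut at rank 3392 the upstream shares were 68.0% of 597 selected and 80.9% of 1230 shared promoter summits, and this difference passed (Fisher's exact test, p = 2.14e-09). The median summit position was 74 bp upstream in the selected set and 95 bp upstream in the shared set. Over all summits the median distance to the nearest coding TSS was 342 bp in the selected and 196 bp in the shared set. The share more than 2000 bp upstream was 9.72% of selected and 5.56% of shared summits, and the share within 200 bp upstream was 36.3% and 41.9%.

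**Figure D4:**
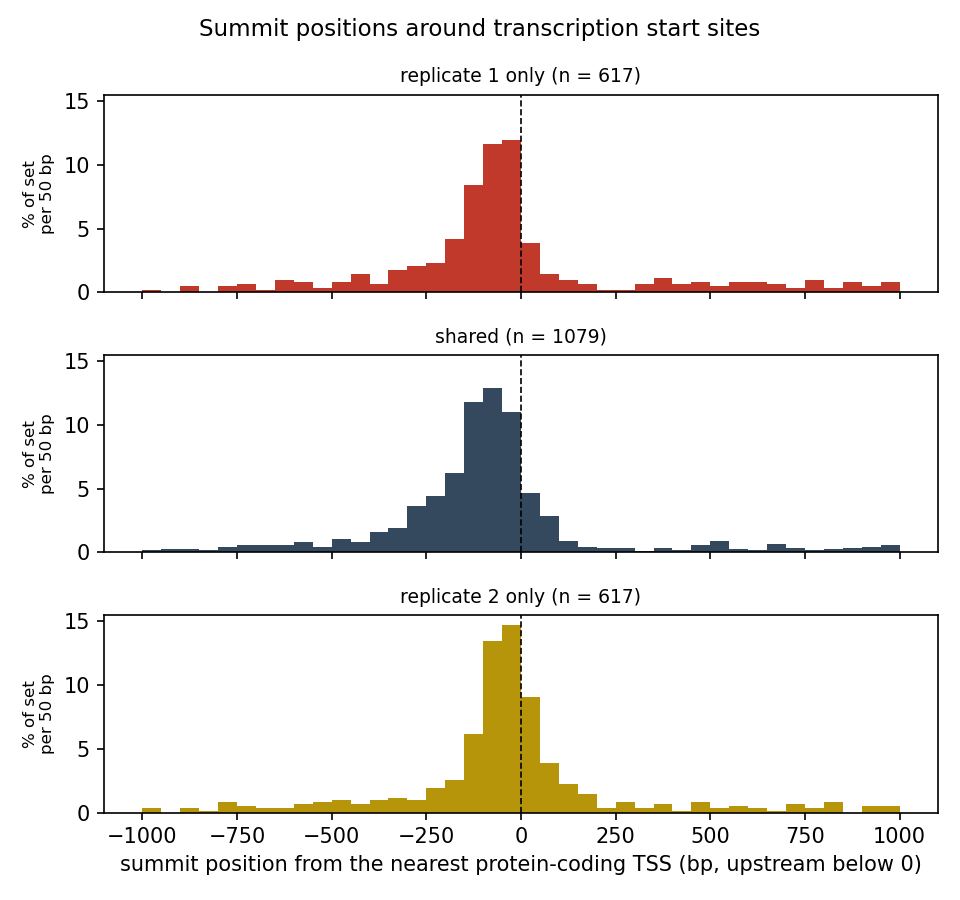
Percentage of each set's summits per 50 bp (y axis) against distance from the nearest protein-coding TSS in bp (x axis, upstream negative), in panels for selected regions (titled replicate 1 only), shared intervals and intervals found in replicate 2 only. All 3 sets peak just upstream of the TSS, which is the dashed line. From the TSS to 200 bp downstream lie 6.97% of selected, 8.90% of shared and 16.7% of replicate 2 only summits.

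The intervals found in replicate 2 only differed from the selected regions in this position. Upstream summits were 280 of 345, 81.2%, in the selected set and 269 of 391, 68.8%, in the replicate 2 only set, an odds ratio of 1.95 with an interval of 1.38 to 2.76 (two-sided Fisher's exact test, p = 0.00013). Between the TSS and 200 bp downstream lay 6.97% of selected summits and 16.7% of replicate 2 only summits. Promoter summits were 58.0% of the selected and 65.5% of the replicate 2 only set (Fisher's exact test, p = 0.00836). The summit lay between the facing promoters of 2 coding genes for 31.6% of selected, 30.7% of shared and 19.8% of replicate 2 only promoter summits. The G and C content of the windows differed along with this: its median was 37.3% in the selected, 36.8% in the shared and 39.8% in the replicate 2 only set, and the part of base composition in the positions was not tested. A different library stands behind each of the selected and the replicate 2 only sets, and library and set cannot be told apart.

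No difference in the share on X was detected. X held 107 of the 613 selected regions on the major arms, 17.5%, against 182 of 1075 shared intervals, 16.9%, with an odds ratio of 1.04 and an interval of 0.798 to 1.35 (two-sided Fisher's exact test, p = 0.788). Chromosome 4 held 4 of each. Within 2000 bp of another shared summit lay 11.2% of the selected and 13.9% of the shared summits. Inside the replicate 1 list 4 selected regions overlapped another selected one, and 1 overlapped a shared interval. Of the shared intervals 54 overlapped another shared one, and these were not merged for the neighbour shares.

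Short motifs were searched on both strands in windows of 100 bp on each side of the summit. The letters searched were CACACCC or CACGCCC for the KLF core, GGGCGG for the Sp box, TATCGATA for the DNA replication-related element (DRE), CGATA at 2 or more places for BEAF-32 and GGTCACACT for the M1BP element. Further motifs were CATCNCTA for Ohler7, AGGNGGC or AGATGGC for the CTCF core, GAGAG for the GAGA factor, CAGGTAG for the pioneer factor Zelda, GCCAT for the Polycomb recruiter Pho and TATAAA for the TATA box. The remaining 4 were the homeodomain core TAATTA, the E-boxes CAGCTG and CAGGTG, and the repeat CACACACA. A DRE match by itself counts as a BEAF-32 pair, since it contains CGATA on both strands at 2 places. Every window with a DRE is therefore also among those with a BEAF-32 pair.

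The KLF core, the motif of luna's own family, was in 14 selected windows, 2.27%, against 30 shared ones, 2.78%, with an odds ratio of 0.812 and an interval of 0.427 to 1.54. The Sp box was in 3.40% of selected and 3.24% of shared windows. A BEAF-32 pair was in 15.6% of both, the DRE in 5.67% and 6.67%, and the GAGA element in 23.7% and 24.0%, each with the selected set first. Of the 15 motifs 0 passed in Fisher's exact test after Benjamini-Hochberg adjustment over them, and 0 had an unadjusted p under 0.05. The lowest unadjusted p was that of the Pho core, in 25.3% of selected and 29.6% of shared windows (Fisher's exact test, p = 0.0636, adjusted p = 0.683). With the cut at rank 848 the BEAF-32 pair passed, in 19.0% of 273 selected and 11.3% of 575 shared windows, while at rank 3392 it passed in the other direction, in 10.2% and 16.0%. Against the replicate 2 only windows 0 passed as well, with 4 under 0.05 before adjustment. In percentage points the largest difference among these 4 was that of the GAGA element, in 23.7% of selected and 30.1% of replicate 2 only windows (Fisher's exact test, p = 0.0122, adjusted p = 0.133). A match describes the letters in a window and is not a binding site.

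Set beside all 30000 replicate 1 candidates, as a description without a test, the selected windows held some motifs more often and others less often. A BEAF-32 pair was in 15.6% of selected windows and 5.62% of all candidate windows, the DRE in 5.67% and 1.59%, Ohler7 in 6.48% and 2.08% and the M1BP element in 2.11% and 0.750%. The TATA box was in 27.9% of selected and 20.5% of all windows, and the homeodomain core in 15.9% and 11.9%. The KLF core was in 2.27% of selected and 5.44% of all windows, the Sp box in 3.40% and 7.47%, the Pho core in 25.3% and 35.5% and the CA repeat in 2.92% and 5.25%. Shares were close for the CTCF core, at 11.5% of selected and 11.1% of all windows, the GAGA element at 23.7% and 23.1%, and the palindromic E-box CAGCTG at 10.2% and 9.91%. The E-box CAGGTG was in 6.81% of selected and 8.07% of all windows, and the Zelda element in 1.62% and 1.09%. The full list holds the selected regions and candidates that are mostly weaker, so rank and set differ together here. The part of base composition in these shares was not tested.

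**Figure D5:**
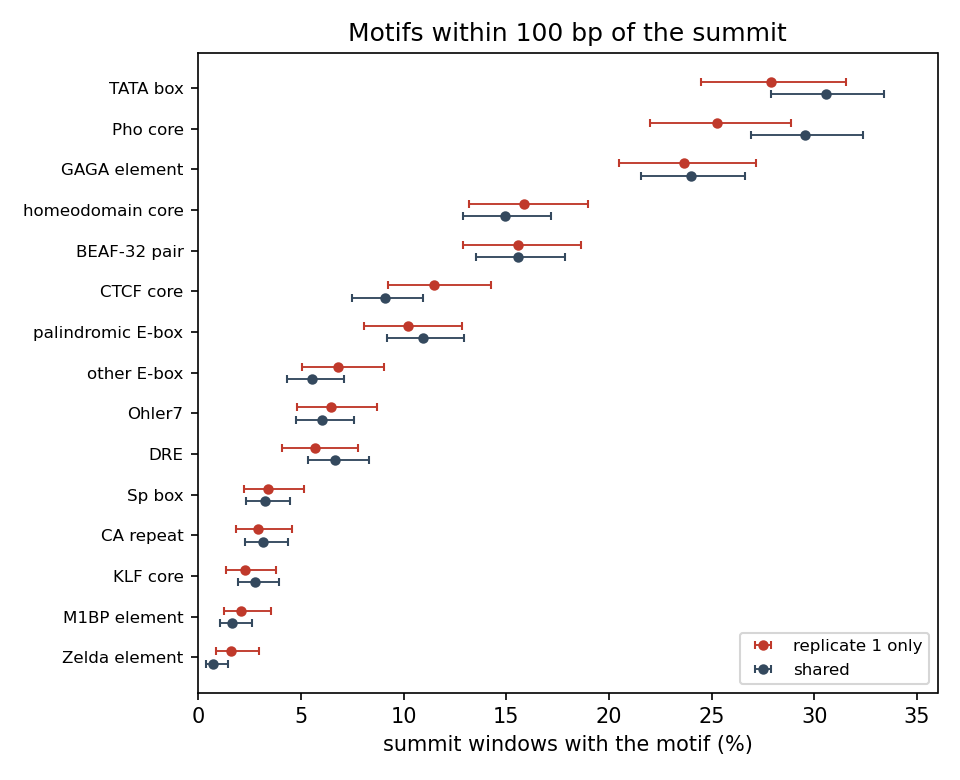
Percentage of windows of 100 bp on each side of the summit (x axis) that hold each of 15 motifs on either strand (y axis), for selected regions (upper point, replicate 1 only in the legend) and shared intervals (lower point), with 95% Wilson intervals. The intervals overlap for every motif, the Pho core at 25.3% and 29.6% included.

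Protein-coding genes with a selected region at the promoter numbered 484, which is 3.47% of the 13945 coding genes, and genes with a shared interval there numbered 988, or 7.08%. Both were found at 22 genes, which is 4.55% of the first and 2.23% of the second. The gene groups below were chosen with earlier results of these data known, and their counts stand beside these background shares without a test. A selected region reached a promoter in 21 of the 27 groups examined.

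Cytoplasmic ribosomal protein genes had a shared interval at the promoter far more often than a selected one, 47 of 86 against 8 of 86. The 8, or 9.30% of the group, included RpL12, RpL15, RpS10b, RpS14a, RpS14b, RpS24 and sta. The interval at RpS10b had its summit 1 bp upstream of the TSS and signal values of 39.7 in replicate 1 and 18.5 in replicate 2. RpL15 had 32.1 in replicate 1 and 13.6 in replicate 2. RpS14a and RpS14b are near-identical neighbouring copies, so reads between them may not be placed with certainty. Mitochondrial ribosomal proteins had 4 of 73 selected and 9 of 73 shared, with mRpS2, mRpL4 and mRpS7 the strongest of the 4.

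The Hippo pathway, which restrains tissue growth through the coactivator Yorkie, had a selected region at 4 of its 19 genes and a shared one at 4. The 4 were Mer, the kinase gene Sik3, the adaptor gene mats and ex, which acts beside Merlin at the cell cortex. mats had a signal value of 26.3 in replicate 1 and 26.0 in replicate 2, just under the cut there, with its summit 468 bp downstream of the TSS. At ex the summit lay 145 bp upstream of the TSS, with 22.1 in replicate 1, near the cut. Sik3 had 32.9 and 19.5, and also carried a shared interval at another promoter position.

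Cell division genes formed further groups. Centriole and centrosome genes had a selected region at 4 of 23, namely Rcd2, asl, cnn and gammaTub23C, and a shared one at 2. The scaffold protein gene asl had a signal value of 35.4 in replicate 1 and 9.94 in replicate 2, at rank 18196. cnn, the scaffold of the pericentriolar material, had 32.4 and 19.6. Mitotic kinases and checkpoint genes had 4 of 29, namely Bub3, BubR1, Cdk1 and mei-41, and a shared one at 2. Cdk1, the kinase that drives entry into mitosis, shares its interval with mRpS7, with 24.4 in replicate 1 and 12.9 in replicate 2. Bub3 shares its interval with the condensin gene Cap-D2. That interval ranked 1593 in replicate 1, with a signal value of 22.5, and 1965 in replicate 2, with 25.5.

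Subunits of Mediator and TFIID, the bridge between activators and RNA polymerase II, had a selected region at 5 of 45 genes and a shared one at 5. All 5 selected ones were Mediator subunits, MED16, MED17, MED21, MED23 and MED31, and the strongest, MED31, had a signal value of 30.3 in replicate 1 and 14.1 in replicate 2. Wnt pathway genes had 3 of 26 selected, namely the kinase gene dco, the ubiquitin ligase subunit gene slmb and the Wnt carrier gene wls, and 2 shared. Polycomb group genes had 2 of 21 in each set, with Su(z)12 and Caf1-55 selected, and Notch pathway genes had 2 of 17 selected, Su(H) and neur, and 4 shared. The other groups with any selected promoter had 1 or 2 such genes, and in most of them shared intervals were more frequent. Oxidative phosphorylation had 1 of 85 genes selected, ND-B17, and 9 shared. Translation initiation factors had 1 of 44, eIF2gamma, and 6 shared, and heat shock and chaperone genes had 1 of 26, Droj2, and 6 shared. Vacuolar ATPase subunits had 1 of 34, Vha36-1, and 5 shared, and proteasome subunits had 1 of 40, Rpn1, and 3 shared. The tRNA synthetases had 2 of 33, AlaRS and SerRS, and 3 shared, and condensin and cohesin genes had 1 of 15, Cap-D2, and 2 shared. The EGF receptor pathway had 1 of 23, Krn, and 2 shared, the ecdysone response 1 of 20, usp, and 2 shared, and neural genes 1 of 32, the adhesion gene Nrg, and 2 shared. Segmentation genes had 1 of 21 in each set, cnc in both, and cuticle genes had 1 of 121, Lcp9, and 0 shared.

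No selected region lay at a promoter in 6 groups, while 3.47% of all coding genes had one there. Most of these groups are small, and their counts were not tested against that share. Insulator and boundary factors had 0 of 19 against 5 shared, Trithorax group genes 0 of 20 against 5, and KLF and Sp factors 0 of 10 against 2. Muscle genes had 0 of 33 against 2, Hox genes 0 of 8 against 0, and odorant and gustatory receptor genes 0 of 230 against 0. The Hox genes Antp, Ubx and Abd-B did hold selected regions in their introns. The 2 in Antp had signal values of 33.3 and 23.8 in replicate 1, the one in Abd-B had 32.8 and the one in Ubx 27.9. Of the muscle genes 4 held selected regions inside the gene, namely Actn, kirre, rhea and rols. The region in Actn was the interval at the promoter of usp, and those of kirre included the interval at the promoter of Syx4.

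With 1 kb added on each side of a gene, 795 genes held 1 selected region and 53 held 2 or more. drn and simj had 4 each, and B4, Tlk, kirre, mew, pnt and the overlapping pair CG5445 and Fim had 3 each. At simj, 25.996 kb long, they ranked 442, 1268, 1328 and 1662, and the first 2 overlap each other and the same replicate 2 candidate at rank 1715. At drn, 22.779 kb long, they ranked 535, 637, 856 and 1647, and the gene held no shared interval. pnt, which encodes the ETS activator at the end of EGF receptor signalling, held 3 over 55.937 kb with 1 shared. mew, which encodes an alpha subunit of the position-specific integrins, held 3 over 44.082 kb with none shared, and Tlk, a kinase of chromatin assembly, held 3 selected and 3 shared. Long genes offer more places for an interval, and these counts are not set against gene length.

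For 13 of the 358 promoter summits only a non-coding gene had its TSS within 500 bp, against 28 of 743 shared ones. The strongest of the 13 lay 472 bp downstream of the TSS of lncRNA:CR44363, with a signal value of 34.1 in replicate 1. One lay 170 bp downstream of the TSS of lncRNA:iab8, the long RNA of the Bithorax complex, with 23.4 in replicate 1 and rank 14962 in replicate 2.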

How the data were processed

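The 2 biological replicates of anti-GFP ChIP-seq were compared through their deposited narrowPeak lists in dm6. Per the deposited README texts, each candidate list was made from that replicate's alignments with 1 control file, the same for both, and the IDR list drew on these and on a pooled list. Not given in the sources used here are the peak caller, the aligner and their versions, and a control experiment named in the labels was not analysed here. The authors deposited for each peak a signal value, treated as a score of unstated scale and used only to rank or describe peaks within a list. The authors also deposited q-values on the −log10 scale, which were not used for ranking. Read counts were not used, so the depth is unknown, and intervals cover counting of regions only. Deposited candidates of replicate 1 in the cut were 364 bp wide for all 617 selected and 1037 of the shared intervals.

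Lists were sorted by signal value, and the cut was the number of IDR peaks, 1696. Genes, TSSs and exons came from Ensembl release 115 on BDGP6.54, with transposable elements left out, and sequence from the RefSeq copy of Release 6, within which all intervals fell. A summit within 500 bp of any TSS was a promoter summit, and other summits took the first class that applied of 5′ untranslated, coding, 3′ untranslated, non-coding exon, intron and intergenic. Shares were compared with two-sided Fisher's exact tests (scipy 1.17.1), with Benjamini-Hochberg adjustment over 6 classes or 15 motifs, Wilson intervals for shares and Woolf intervals for odds ratios, all at 95%. Python 3.11.15, numpy 2.4.6, statsmodels 0.14.6 and matplotlib 3.10.9 were used, and the overlap and test steps were tested on simulated data. Distances in bins, first introns, facing promoters, base composition, neighbours and gene groups are descriptions without a test. Of 378 gene names in the groups 16 had no match.

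The regions and gene groups were chosen with earlier results of these data known. Genes named are those of the 15 strongest regions, the 8 strongest without a replicate 2 candidate, the 3 nearest the cut on each side, the strongest 3 of each gene group and those with most regions, ties included. Further names, chosen after their values were seen, are the remaining genes of the ribosomal protein, Hippo, centrosome, mitotic and Mediator groups, the Hox and muscle genes, the genes closest to and farthest below the replicate 2 cut and the non-coding genes. Some items under this rule are not reported here. Alternatives changed the rank cut, the overlap rule, the promoter distance, the window and the set compared, and 1, counting overlapping replicate 1 intervals once, was added after seeing the data.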

Additional observations from a re-analysis of the deposited data

How the results depend on the processing

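The selected share of the cut, 36.4%, was 32.2% (273 of 848) with the cut at rank 848 and 42.9% (1455 of 3392) with the cut at rank 3392, and in the deposited dm3 lists it was 35.8% (587 of 1639). The lower promoter share kept its direction in all 13 alternatives, with odds ratios of 0.397 to 0.787, and lost the test in 1, at rank 848 (0.787). The upstream share was not past the threshold as reported (0.851). Its odds ratio was above 1 at rank 848 (1.38), against the replicate 2 only set (1.95) and with a promoter of 250 bp (1.08), and it passed the test below 1 at rank 3392 (0.502) and with a promoter of 1000 bp (0.735). Upstream summits were a majority of the selected promoter summits in every setting run, at 68.0% to 87.1%, and only the difference from the compared set changed sign. Outside promoters 2 classes passed at rank 3392, coding exons at 7.64% of selected and 1.21% of shared summits and introns at an odds ratio of 0.727, opposite in direction to the reported 1.27. The intron odds ratio was 0.994 among the weaker ranks. The X share had an odds ratio of 0.832 at rank 3392. Of the motifs 1 passed at rank 848, the BEAF-32 pair in 19.0% of selected and 11.3% of shared windows, and 5 passed at rank 3392, where the BEAF-32 pair was lower in the selected set, at 10.2% against 16.0%. The Pho core had an odds ratio of 1.06 at rank 3392 and 1.01 with 50 bp on each side. Counting overlapping intervals once left 615 selected regions and a promoter odds ratio of 0.640. The causes of these changes were not tested. No paired analysis was possible because each replicate is a single library of the same group, and leaving out a replicate could not be done because the selection needs both lists. Depth limits what the lists can show, since a region's absence below a cut is not absence of signal.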
